A study of Mus musculus with 12 samples.

Results

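The genes described here encode the proteins that dock, prime and fuse synaptic vesicles, together with close relatives that serve other membranes. They were chosen by name from the 15397 genes measured: symbols built from Syt, Stx, Vamp, Syn, Cplx or Stxbp and a digit, symbols that begin with Sv2 or Rab3, and Snap25, Snap91, Syp, Sypl, Synpr, Nsf, Napa and Napb. The rule uses no measured value and gave 78 genes. It also takes in 11 Rab proteins numbered in the thirties, such as Rab35 and Rab39b, which are not Rab3 isoforms, and syntaxins of the Golgi, endosome and autophagosome. RefSeq lists 85 mouse protein-coding genes that the rule would match, and the other 7 (Vamp9, Rab38, Syt8, Stx11, Stx19, Cplx4 and Vamp7) were not analysed here.

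RNA was sequenced from the microdissected striatum of 12 C57BL/6 mice in 4 groups of 3: R6/2 mice on PLX3397, R6/2 mice on vehicle, wild-type mice on PLX3397 and wild-type mice on vehicle. R6/2 mice carry a transgene for a fragment of mutant huntingtin under the human huntingtin promoter and serve as a model of Huntington's disease. PLX3397, an inhibitor of the receptor Csf1r on which microglia depend, was given in chow at 275 ppm between weeks 7 and 11 of age. The libraries held 18902120 to 24293208 reads assigned to genes.

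A synaptic vesicle fuses when the vesicle SNARE synaptobrevin zips together with syntaxin and SNAP-25 of the plasma membrane, a complex that Munc18 proteins help to assemble and complexins clamp until synaptotagmin binds calcium. NSF and its SNAP adaptors then pull the spent complex apart, while synapsins and Rab3 proteins tether and deliver the vesicles. In the striatum the terminals belong to the local medium spiny neurons and interneurons and to axons from cortex, thalamus and midbrain. The RNA of an incoming axon's genes is made in a cell body outside the striatum, so it is measured here only where such cell bodies were in the tissue taken.

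Synaptotagmin 12, Rab3b and complexin 2 were lower in R6/2 than in wild-type striatum with and without the drug. RefSeq gives the promoters of Rab3b and Cplx2, and the 250 bases upstream of each start site are shown because these are the members that moved together by genotype. The Syt12 promoter is named only. Both sequences are from GRCm38.p6 and from the plus strand, at chr4:108878820-108879069 for Rab3b and chr13:54302306-54302555 for Cplx2. RefSeq starts the Cplx2 gene at base 54301964 of that chromosome, so the Cplx2 sequence lies inside the gene and ahead of a later start. Capitals mark matches to 5 motifs searched on both strands: TGACGTCA (the cyclic AMP response element), its shorter core TGACG, the GC box GGGCGG, the TATA box TATAAA and TTCAGCACC, a part of the RE1 element.
Rab3b: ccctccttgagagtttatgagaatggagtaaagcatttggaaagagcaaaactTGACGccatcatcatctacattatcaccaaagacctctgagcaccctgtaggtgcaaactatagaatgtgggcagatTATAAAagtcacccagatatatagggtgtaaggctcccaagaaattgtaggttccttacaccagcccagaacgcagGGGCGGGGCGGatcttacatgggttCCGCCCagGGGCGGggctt
Cplx2: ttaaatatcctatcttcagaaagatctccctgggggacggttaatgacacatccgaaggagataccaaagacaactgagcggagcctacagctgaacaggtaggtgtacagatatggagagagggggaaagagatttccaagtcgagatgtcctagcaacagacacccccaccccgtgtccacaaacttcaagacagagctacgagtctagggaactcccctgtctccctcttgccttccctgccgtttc
The Rab3b sequence held TGACG at position -197, TATAAA at -120 and the GC box at -44, -39 and -11 and, on the reverse strand, at -19, counted from the start site, with the boxes at -44 and -39 overlapping by a base. The Cplx2 sequence held none of the 5. Among all 32851 RefSeq promoters of this length, 32.7% held the GC box, 17.8% TGACG, 12.4% TATAAA, 1.55% the full cyclic AMP element (a match to which always holds TGACG) and 0.301% TTCAGCACC. Among the 84 promoters of the 63 members with an entry, 63.1% held the GC box and 22.6% TGACG. The only member promoter with TTCAGCACC was that of Syn1, at -232. A match or its absence describes these letters alone.

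Levels are given as log2 CPM, the log2 of read counts scaled to the size of the library with a small constant added, and comparisons between genes are given per kilobase of the longest protein-coding transcript. Per kilobase and over all 12 libraries, the most abundant members were Snap25 at 9.35, the vesicle protein synaptophysin (Syp) at 8.83, Vamp2 at 8.75, Rab3a at 8.27, Cplx1 at 8.04, Syt1 at 7.85 and Cplx2 at 7.71 log2 CPM. The lowest were Syt15 at -1.39, Rab39 at -0.70 and Vamp5 at -0.70. Of the forms that carry fast release in neurons, Snap25, Vamp2, Cplx1 and Syt1 were near the top of this order. Not all were, as the plasma-membrane syntaxin Stx1a ranked 21 at 5.45.

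**Figure D1:**
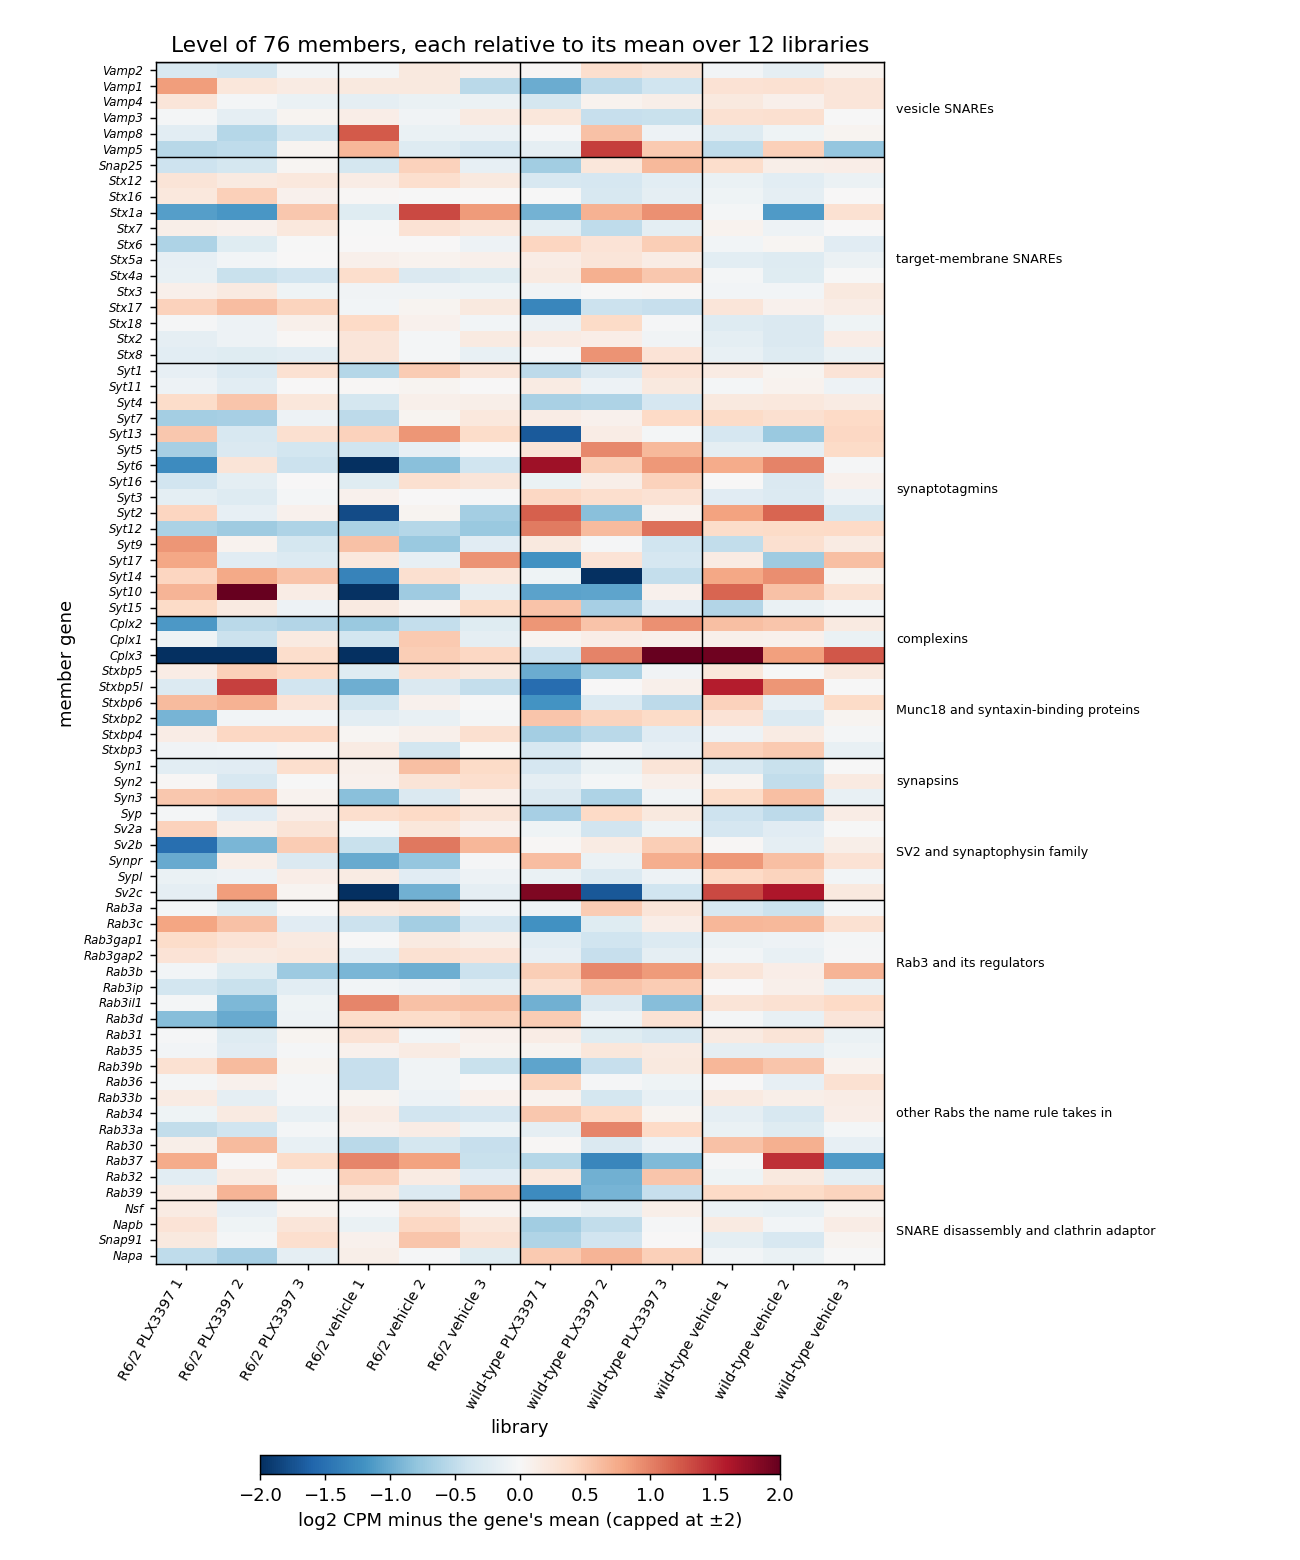
Level of 76 of the 78 members (rows, grouped by role and sorted by median level) in each of the 12 libraries (columns, by group), as log2 CPM minus the gene's mean over all libraries, with colours capped at 2. Syt12, Cplx2 and Rab3b are mostly blue in the R6/2 columns and mostly red in the wild-type columns, with a Rab3b square near white in R6/2 PLX3397 library 1, while Nsf stays near white.

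The libraries differed in more than genotype and drug. The 10 microglial markers all fell with the drug in both genotypes, with a mean level of -1.10 to 0.01 log2 CPM in the R6/2 PLX3397 and -1.52 to 0.81 in wild-type PLX3397 libraries, against 4.87 to 5.34 in R6/2 vehicle and 5.06 to 5.13 in wild-type vehicle libraries. The 15 markers of medium spiny neurons, present in every library, had mean levels of 5.68 to 7.34 (R6/2 PLX3397), 5.62 to 6.82 (R6/2 vehicle), 8.33 to 9.48 (wild-type PLX3397) and 7.53 to 8.83 (wild-type vehicle). The mean of 12 cortical excitatory neuron markers was 2.19 and 2.14 in R6/2 PLX3397 libraries 1 and 2 and 2.48 in wild-type PLX3397 library 1, and 3.70 to 5.93 in the other 9. The mean of 7 choroid plexus markers was 6.62 in R6/2 vehicle library 1 and 5.62 in wild-type PLX3397 library 1, and 2.20 to 3.96 elsewhere. The mean of 10 markers of thalamus, septum and pallidum was 2.47 to 4.29 in R6/2 PLX3397 and 1.55 to 3.09 in R6/2 vehicle libraries. In wild-type mice it was 1.43 to 3.36 on PLX3397 and 3.40 to 4.34 on vehicle. In whole tissue, fewer cells of a type and less RNA per cell cannot be told apart.

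Comparing R6/2 with wild-type mice on vehicle asks what the transgene changes without the drug. Of the 78 members, 3 were called, 0 higher and 3 lower, at a limma p adjusted over all 15397 genes under 0.05. That is 3.85%, beside 2.11% of all genes (0.617% higher and 1.49% lower). The median difference of the members was 0.01 on the log2 scale, the same as that of all genes at 0.01, and 59 members differed by less than 0.5. At an unadjusted p under 0.05 stood 24 members (30.8%), beside 22.6% of all genes. With a GC and length trend taken out of each library, the same 3 were called lower and Stx12 higher, which is 4 members, beside 5.07% of all genes.

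Syt12, a synaptotagmin that lacks the usual calcium-binding residues and sits on synaptic vesicles, was at 4.20, 4.26 and 4.09 log2 CPM in R6/2 vehicle libraries and at 5.19, 5.22 and 5.23 in wild-type vehicle libraries. Every R6/2 library was about 1 log2 unit below every wild-type library. Syt12 was thereby 2.04-fold lower in R6/2 (log2 difference -1.03 ± 0.13 SE, limma adjusted p = 0.0161, n = 3 mice each). The call was lost without R6/2 vehicle library 2 or wild-type vehicle library 1 or 2 (adjusted p of 0.00855 to 0.101 over 23 alternatives).

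Rab3b, a Rab3 isoform that cycles on and off vesicles as a GTPase, was at 4.70, 4.63 and 5.18 log2 CPM in R6/2 vehicle libraries and at 5.84, 5.74 and 6.29 in wild-type vehicle libraries. The groups did not overlap. The log2 difference was -1.12 ± 0.22, or 2.18-fold lower in R6/2 (limma adjusted p = 0.0366; 0.0276 to 0.136 over the alternatives, called in 13 of 23). Of the other isoforms, Rab3a was at 9.11, 9.16 and 8.85 in R6/2 vehicle and 8.59, 8.48 and 8.90 in wild-type vehicle libraries. It showed no call (difference 0.39, 95% interval 0.002 to 0.77, limma adjusted p = 0.220). Rab3c differed by -1.03 (0.108) and Rab3d by 0.38 (0.393), both without overlap of the groups and neither called.

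Cplx2, a complexin that binds the assembled SNARE complex, was at 9.28, 9.53 and 9.78 log2 CPM in R6/2 vehicle libraries and at 10.61, 10.57 and 10.19 in wild-type vehicle libraries. All R6/2 values were again below all wild-type values. The log2 difference was -0.93 ± 0.21, or 1.90-fold lower in R6/2 (limma adjusted p = 0.0481). This call was the weakest of the 3: it held in 7 of 23 alternatives (adjusted p of 0.0397 to 0.199) and was lost, among others, with limma-voom on recovered reads and with a rescaling by median of ratios. Cplx1, a paralog, showed no call (difference -0.02, 95% interval -0.51 to 0.46, limma adjusted p = 0.965). Cplx3, another, differed by -1.80 (-4.29 to 0.68) without overlap of the groups and was not called (0.364).

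**Figure D2:**
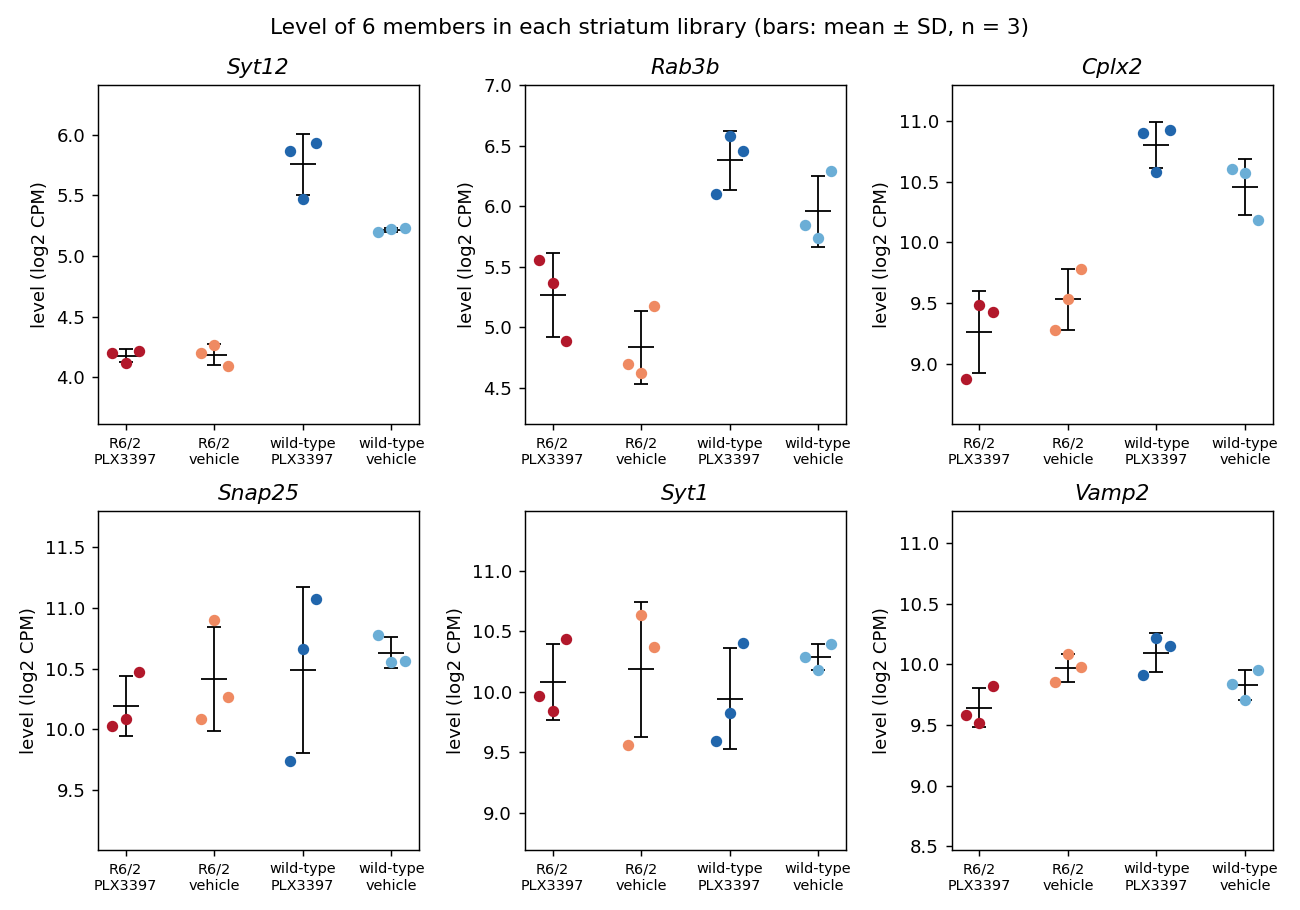
Level in log2 CPM of 6 members in each library, with points for libraries and bars for the mean ± SD of n = 3. Syt12, Rab3b and Cplx2 (top) do not overlap between R6/2 and wild-type libraries on either diet. Snap25 and Syt1 (bottom) overlap on both diets, and Vamp2 overlaps on vehicle.

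Each of these 3 genes also separated all 6 R6/2 from all 6 wild-type libraries, a count chosen after the values were seen. In that count, 5 members did not overlap between the genotypes: Syt12, Rab3b and Cplx2 lower, and Stx12 and Rab3gap1 higher in R6/2. The 5 are 6.41% of the members, beside 7.27% of all genes (4.38% lower and 2.9% higher). Stx12, a syntaxin of recycling endosomes, was at 7.68, 7.60 and 7.62 log2 CPM in the R6/2 PLX3397, 7.56, 7.75 and 7.61 in R6/2 vehicle, 7.09, 7.08 and 7.20 in wild-type PLX3397 and 7.28, 7.21 and 7.30 in wild-type vehicle libraries. On vehicle its difference of 0.38 ± 0.09 was not called (limma adjusted p = 0.0618).

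Within a library the 2 main complexins can be set side by side per kilobase. Cplx2 minus Cplx1 was -0.98 ± 0.49 (SD, n = 3) log2 units in R6/2 PLX3397 and -0.81 ± 0.48 in R6/2 vehicle libraries, against 0.36 ± 0.23 in wild-type PLX3397 and 0.09 ± 0.10 in wild-type vehicle libraries. The 2 complexins were at about the same level in wild-type striatum on vehicle, and Cplx2 was the lower of the pair in every R6/2 library. Rab3b stayed far below Rab3a throughout, by -4.65 ± 0.41 in R6/2 PLX3397, -5.30 ± 0.47 in R6/2 vehicle, -3.85 ± 0.08 in wild-type PLX3397 and -3.79 ± 0.08 in wild-type vehicle libraries. These ratios are descriptions of the same values and carry no test.

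The core of the fusion machine showed no call between genotypes on vehicle. The log2 difference was -0.22 (95% interval -0.91 to 0.48) for Snap25, 0.14 (-0.18 to 0.45) for the main vesicle SNARE Vamp2, -0.10 (-0.73 to 0.53) for the calcium sensor Syt1 and 0.16 (-0.15 to 0.47) for the ATPase Nsf. For Vamp2 and Nsf the intervals leave out a difference of 0.5, and for Snap25 and Syt1 they do not. Syn1, a synapsin that holds vesicles in reserve, was at 8.70, 9.21 and 9.0 log2 CPM in R6/2 vehicle and 8.28, 8.16 and 8.61 in wild-type vehicle libraries. Its groups did not overlap, yet the difference of 0.62 (0.15 to 1.09) was not called (limma adjusted p = 0.129).

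Several vesicle genes had wide differences that were not called. Sv2c, the SV2 isoform enriched in the basal ganglia, was at 2.67, 4.20 and 4.97 log2 CPM in R6/2 vehicle libraries and at 6.48, 6.78 and 5.35 in wild-type vehicle libraries. The difference of -2.26 (95% interval -4.05 to -0.46) was the largest fall of any member here and was not called (limma adjusted p = 0.144), with replicates that spread over more than 2 units. Synpr, a synaptophysin relative, differed by -1.19 (adjusted p = 0.0848), Syt6 by -1.67 (0.0965), Rab3c by -1.03 (0.108) and Syt10 by -1.65 (0.129), each without overlap between the groups. Groups of 3 also lay apart on vehicle for small differences, such as Rab3gap1 at 0.18 (0.302) and Vamp1 at -0.33 (0.440). In the same libraries the medium spiny neuron list had a median of -2.34 with 4 of 15 markers called lower. The part of that list in these differences was not tested.

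Among the other presynaptic lists, calls on vehicle were in the vesicular transmitter transporters alone, where 3 of 6 were lower, beside 1.49% of all genes. Slc32a1, which loads GABA, differed by -0.91 ± 0.20 (limma adjusted p = 0.0432), Slc17a8, a glutamate transporter of cholinergic and other interneurons, by -1.80 ± 0.36 (0.0369) and Slc18a3, which loads acetylcholine, by -2.47 ± 0.48 (0.0334). None of 25 active zone and priming genes, 28 endocytosis genes, 12 other vesicle membrane proteins and 19 other SNAREs and cofactors was called. Their medians were -0.08, 0.11, 0.24 and 0.11. The mean of 10 striatal interneuron markers, Slc18a3 among them, was 3.05 to 3.59 log2 CPM in R6/2 vehicle libraries. In wild-type vehicle libraries it was 4.66 to 4.91, and 3 of the 10 were called lower in R6/2. The part of these markers in the transporter calls was not tested.

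**Figure D3:**
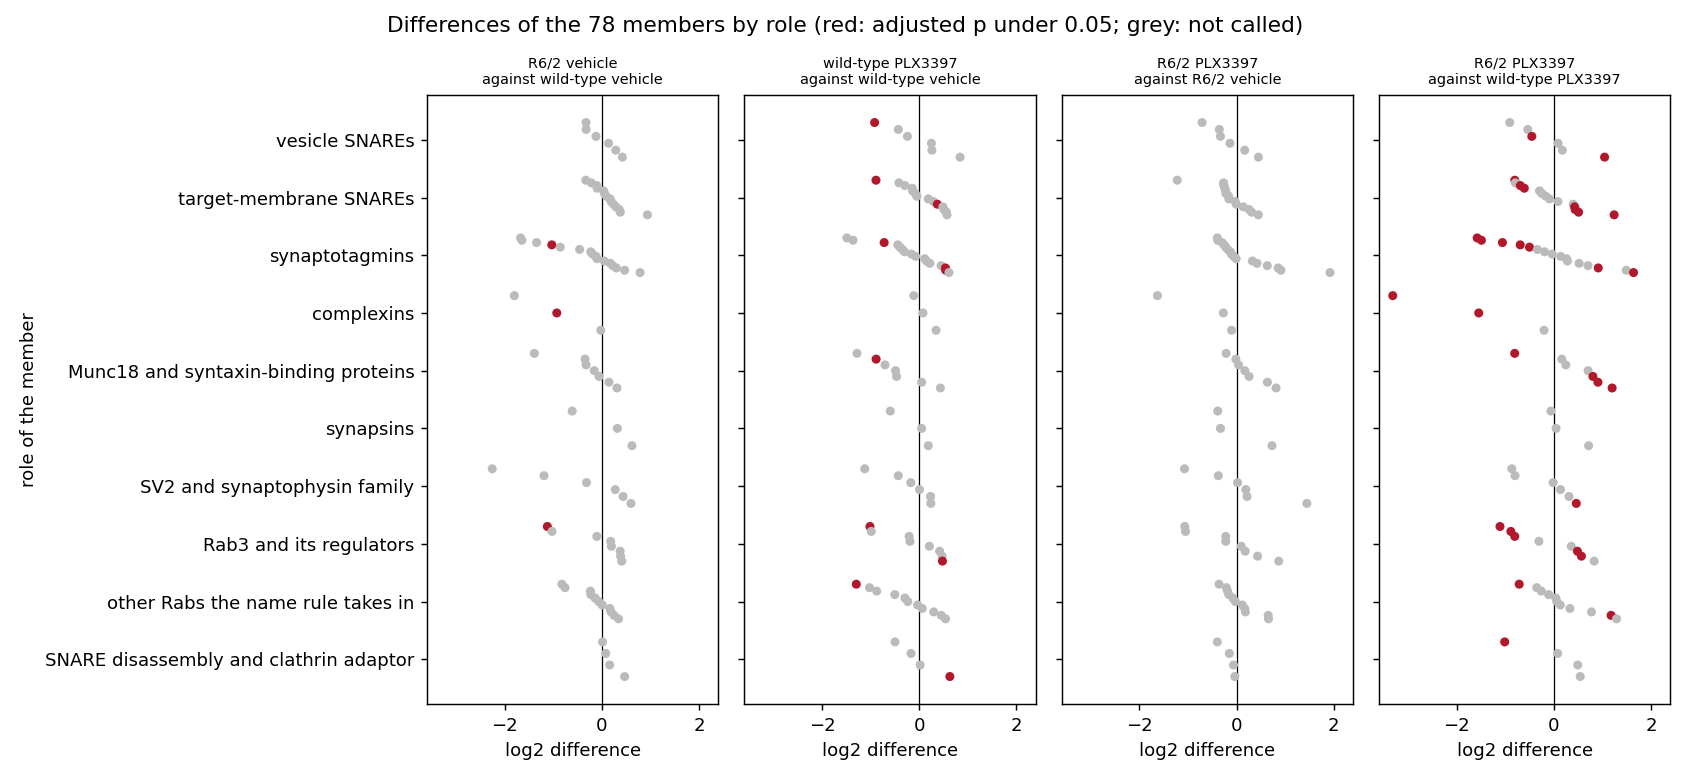
Log2 difference of each of the 78 members, with a row per role and a panel per pair of groups. Red points were called at a limma adjusted p under 0.05 and grey points were not. On vehicle 3 members were called, and between the genotypes on PLX3397 31 were, spread over most roles and both directions.

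Setting PLX3397 against vehicle in wild-type mice asks what the drug does without the transgene, and 11 members were called, 5 higher and 6 lower. At 14.1% this was close to the rate of all genes, 14.2% (5.93% higher and 8.3% lower). The members' median was -0.08, beside 0.005 for all genes, and 53 members changed by less than 0.5. The wild-type vehicle group enters both this comparison and the last, so the changes of a gene in the 2 comparisons are linked.

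The 5 that rose came from 4 roles. Napa, the alpha-SNAP adaptor that brings NSF to spent SNARE complexes, was at 8.35, 8.51 and 8.31 log2 CPM in wild-type PLX3397 and at 7.77, 7.69 and 7.82 in wild-type vehicle libraries. All treated values were above all vehicle values, and the difference was 0.63 ± 0.14 (limma adjusted p = 0.0201). Syt12 was at 5.87, 5.47 and 5.93 in wild-type PLX3397 and 5.19, 5.22 and 5.23 in wild-type vehicle libraries, a rise of 0.54 ± 0.13 (adjusted p = 0.0265). The other 3 were Syt3, a high-affinity calcium sensor, at 0.55 ± 0.10 (0.0119), Stx5a, a Golgi SNARE, at 0.37 ± 0.09 (0.0278), and Rab3ip, an exchange factor for Rab8, at 0.48 ± 0.12 (0.0292).

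The 6 that fell included Syt4, a synaptotagmin of dense-core vesicles, at 7.06, 7.10 and 7.39 log2 CPM in wild-type PLX3397 and 7.90, 7.93 and 7.89 in wild-type vehicle libraries. The vehicle libraries lay within 0.04 of each other, and the change was -0.72 ± 0.15 (limma adjusted p = 0.0157). With the GC and length trend removed its direction turned, to 0.22 (adjusted p = 0.393). Vamp1, the synaptobrevin abundant in brainstem and spinal cord, was at 5.87, 6.34 and 6.46 in wild-type PLX3397 and 7.15, 7.16 and 7.11 in wild-type vehicle libraries, a change of -0.92 ± 0.24 (adjusted p = 0.0313). Stx17, the syntaxin that fuses autophagosomes with lysosomes, was at 3.68, 4.54 and 4.52 in wild-type PLX3397 and 5.22, 5.07 and 5.13 in wild-type vehicle libraries, a change of -0.89 ± 0.20 (0.0206). None of these groups overlapped. Stxbp6 (amisyn, a SNARE-binding protein) fell by 0.89 ± 0.25 (0.0398) and Rab39 by 1.29 ± 0.31 (0.0245), the second from only 13 to 56 reads a library in these groups.

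Rab3il1, an exchange factor for Rab3a and Rab8, was at 1.83, 2.50 and 1.94 log2 CPM in wild-type PLX3397 libraries and at 3.04, 3.09 and 3.18 in wild-type vehicle libraries. The change was -1.01 ± 0.26 (limma adjusted p = 0.0310). In R6/2 mice it was at 2.74, 1.89 and 2.71 on PLX3397 and 3.77, 3.38 and 3.39 on vehicle, a difference of -1.07 ± 0.26 that was not called (adjusted p = 0.118). The difference between the genotypes in this change was not called (interaction -0.05, 95% interval -0.87 to 0.76, adjusted p = 0.928), an interval wide enough for a difference of most of a log2 unit. The 10 microglial markers had medians of -5.95 with the drug in R6/2 and -5.62 in wild-type mice, and their part in the Rab3il1 values was not tested.

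The 11 calls depended on the libraries fitted, and across members the change went with base composition. Without wild-type vehicle library 1, and likewise without library 2, 0 members were called. Without wild-type vehicle library 3 there were 11, with 7 shared. Leaving out wild-type PLX3397 library 2 gave 6, and a fit of the 6 libraries compared gave 1. Across the 78 members the change had a Spearman correlation of 0.655 with transcript GC content (0.510 across all 14305 genes with a GC value; genes share these libraries and are not independent). The called members had a median GC of 56.2% where they rose and 47.6% where they fell. With the GC and length trend taken out, 5 members were called, 3 higher and 2 lower (11.2% of all genes were called), and Stx5a (0.32), Stx17 (-0.66) and Rab3il1 (-1.17) were the 3 shared with the first count.

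In R6/2 mice PLX3397 against vehicle gave 0 called members with limma, beside 1.1% of all genes, and 0 with limma-voom on recovered reads. At an unadjusted p under 0.05 stood 13 members (16.7%), beside 13.1% of all genes. The median was -0.07 for the members and -0.01 for all genes, and 61 members differed by less than 0.5. This comparison shares no library with that of the drug in wild-type mice.

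The smallest p belonged to Rab3d, a Rab3 isoform best known from secretory granules of exocrine cells. It was at 1.90, 1.75 and 2.66 log2 CPM in the R6/2 PLX3397 libraries and at 3.13, 3.13 and 3.21 in R6/2 vehicle libraries. The groups did not overlap, but the difference of -1.05 ± 0.25 was not called (limma adjusted p = 0.105). Syt10, a synaptotagmin of growth factor secretion in olfactory bulb neurons, was at 2.21, 3.57 and 1.69 in R6/2 PLX3397 and -0.45, 0.82 and 1.33 in R6/2 vehicle libraries, a difference of 1.92 (95% interval 0.68 to 3.17, adjusted p = 0.223). It rests on 73 to 281 reads in R6/2 PLX3397 and 17 to 47 reads in R6/2 vehicle libraries.

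The 3 members that separated the genotypes were not called with the drug in R6/2 mice. Syt12 was at 4.20, 4.12 and 4.22 log2 CPM in the R6/2 PLX3397 libraries, beside the 4.09 to 4.26 of R6/2 vehicle libraries, a difference of -0.01 (95% interval -0.30 to 0.28). Rab3b was at 5.56, 5.36 and 4.88 in R6/2 PLX3397 libraries and differed by 0.43 (-0.06 to 0.93), and Cplx2 was at 8.87, 9.48 and 9.42 and differed by -0.27 (-0.73 to 0.19). These intervals end below the 1.03, 1.12 and 0.93 by which Syt12, Rab3b and Cplx2 were lower in R6/2 than in wild-type mice on vehicle, values that carry errors of their own.

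Between the genotypes on PLX3397, 31 members were called, 14 higher and 17 lower in R6/2. That is 39.7%, beside 35.0% of all genes (17.1% higher and 17.9% lower). The median was 0.07 for the members and -0.003 for all genes. Each drug group also enters the drug comparison of its genotype, so these differences and the drug's changes are linked.

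Syt12, Cplx2 and Rab3b were again lower in R6/2. Syt12 was 2.99-fold lower in R6/2 (log2 difference -1.58 ± 0.13, limma adjusted p = 1.11e-04), Cplx2 2.92-fold lower (-1.55 ± 0.21, adjusted p = 7.77e-04) and Rab3b 2.16-fold lower (-1.11 ± 0.22, adjusted p = 0.00456). These 3 kept their call in all 23 alternatives. When R6/2 PLX3397 libraries 1 and 2, low in cortical markers, were left out together, these 3 were the called members that remained out of 31, with 1 library then in the R6/2 group and the spread pooled over the other groups.

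Among the SNAREs, Vamp1 was at 7.70, 7.08 and 7.02 log2 CPM in the R6/2 PLX3397 libraries, above the 5.87, 6.34 and 6.46 of wild-type PLX3397 libraries, while Vamp2 was at 9.58, 9.52 and 9.82, below 9.91, 10.22 and 10.15. The paralogs differed in opposite directions, Vamp1 by 1.04 ± 0.24 (limma adjusted p = 0.00804) and Vamp2 by -0.45 ± 0.14 (adjusted p = 0.0309). With the GC and length trend removed Vamp1 kept its call and Vamp2 did not. Of 14 target-membrane SNAREs, 4 were higher (Stx17 by 1.24, Stx12 by 0.51, Stx7 by 0.44 and Stx16 by 0.43) and 3 lower (Stx4a by -0.80, Stx6 by -0.69 and Stx8 by -0.61). These 7 serve endosomes, lysosomes, autophagosomes, the trans-Golgi network and, for Stx4a, the plasma membrane. The synaptic Snap25 and Stx1a were not called, at -0.30 (95% interval -0.99 to 0.40) and -0.79 (-2.16 to 0.58). With the trend removed Stx12 (0.13) and Stx7 (0.29) were no longer called, and the other 5 were. In that fit Snap25 was called lower in R6/2, while Stx1a was called in neither fit.

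Of 16 synaptotagmins, 2 were higher (Syt4 by 0.91 and Syt10 by 1.64) and 5 lower (Syt12, Syt5 by -1.06, Syt3 by -0.50, Syt7 by -0.69 and Syt6 by -1.49). With the GC and length trend removed Syt12 alone of these 7 kept its call, and Syt3 turned to 0.016. Syt4 was then at 0.04, Syt10 at 1.41, Syt5 at -0.36, Syt7 at -0.26 and Syt6 at -1.20. The fast sensor Syt1 was not among them (0.14, 95% interval -0.49 to 0.77). Among the regulators, Stxbp6 (1.20), Stxbp5 (tomosyn, a brake on SNARE assembly; 0.91) and Stxbp4 (0.80) were higher and Stxbp2 (-0.81) was lower. Of these 4, Stxbp6 (1.16) and Stxbp4 (0.40) kept the call with the trend removed, and Stxbp5 (0.42) and Stxbp2 (-0.39) did not. Napa was at 7.32, 7.16 and 7.65 log2 CPM in the R6/2 PLX3397 and 8.35, 8.51 and 8.31 in wild-type PLX3397 libraries, a difference of -1.01 ± 0.14 (limma adjusted p = 9.33e-04), or -0.54 (0.00743) with the trend removed. On vehicle the same gene differed by 0.01 (95% interval -0.30 to 0.33).

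Among the Rab3 genes, both subunits of the Rab3 GTPase-activating complex were higher in R6/2 on PLX3397, the catalytic Rab3gap1 by 0.57 ± 0.10 (limma adjusted p = 0.00258) and Rab3gap2 by 0.48 ± 0.14 (0.0248). Neither kept its call with the GC and length trend removed, where Rab3gap1 was at 0.05 (adjusted p = 0.752) and Rab3gap2 at 0.28 (0.101). Rab3ip (-0.81) and Rab3d (-0.89) were lower beside Rab3b, and of these Rab3d lost its call in that fit (-0.46). Sv2a, the most abundant SV2, was higher by 0.46 ± 0.15 (0.0317), and by 0.79 (0.00685) with the trend removed. None of the 3 synapsins was called. With the GC and length trend removed 19 members were called, 7 higher and 12 lower, 14 of them shared with the 31 (27.1% of all genes were called); the correlation of the difference with GC was -0.587 across the members and -0.456 across all genes.

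Some members were low in libraries that were low in cortical markers. Stx1a, a plasma-membrane syntaxin of release, was at 5.46, 5.39 and 7.10 log2 CPM in the R6/2 PLX3397, 6.32, 7.88 and 7.42 in R6/2 vehicle, 5.62, 7.25 and 7.47 in wild-type PLX3397 and 6.52, 5.42 and 6.86 in wild-type vehicle libraries. Its 4 lowest values were in the 4 libraries lowest in cortical markers, 2 of R6/2 PLX3397 and 1 of each wild-type group. Sv2b, an SV2 of excitatory neurons, was at 6.43 and 7.03 in R6/2 PLX3397 libraries 1 and 2 and at 7.50 to 9.0 in all others. It did not follow the markers beyond these: wild-type PLX3397 library 1, with the markers at 2.48, had Sv2b at 7.96, above the 7.50 of R6/2 vehicle library 1, with the markers at 4.63. Cplx3, a complexin of retina and deep cortical layers, was at -0.36 and -0.31 in those libraries (17 reads each), at 0.68 in R6/2 vehicle library 1 and at 2.57 to 6.08 elsewhere, the 2.57 in wild-type PLX3397 library 1. Cplx3 was called lower in R6/2 on PLX3397 (-3.32 ± 1.13, limma adjusted p = 0.0418), its groups overlapped, and the part of the cortical markers was not tested.

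**Figure D4:**
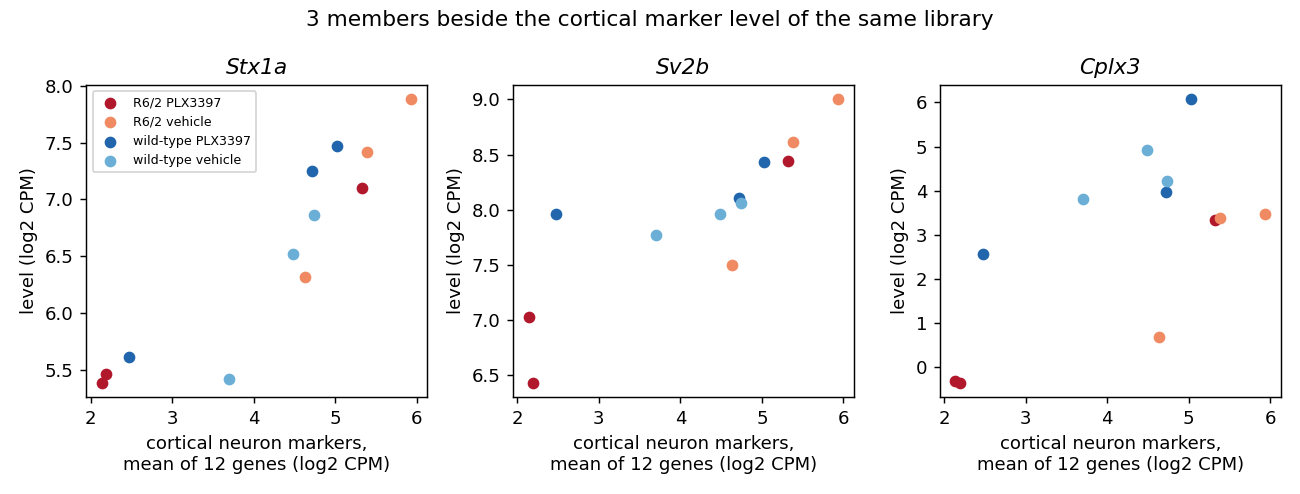
Level in log2 CPM of Stx1a, Sv2b and Cplx3 (vertical) beside the mean log2 CPM of 12 cortical excitatory neuron markers (horizontal) in the same library, with a point for each of the 12 libraries, coloured by group. R6/2 PLX3397 libraries 1 and 2 lie at the lower left of each panel, and the third library of that group lies among the others.

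The interaction asks whether the drug's change differed between R6/2 and wild-type mice. It was called for 17 members, 10 with a higher and 7 with a lower change in R6/2. That is 21.8%, beside 17.0% of all genes (9.29% higher and 7.71% lower), with a median of 0.02 for the members and -0.05 for all genes. In all 17 the drug's change had opposite signs in the genotypes, and by itself it was called for 0 of them in R6/2 mice. Choosing genes by a large difference between the changes favours opposite signs. Their share among all genes with a called interaction was not counted.

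Stx17 changed by 0.45 ± 0.20 with the drug in R6/2 and by -0.89 ± 0.20 in wild-type mice (interaction 1.34 ± 0.29, limma adjusted p = 0.0181). Syt4 changed by 0.42 ± 0.15 in R6/2 and by -0.72 ± 0.15 in wild-type mice (interaction 1.14 ± 0.21, adjusted p = 0.0142). All 3 signs of Syt4 turned with the GC and length trend removed, to -0.12 in R6/2, 0.22 in wild type and -0.33 for the interaction (adjusted p = 0.353). Napa did the reverse, with -0.40 ± 0.14 in R6/2 and 0.63 ± 0.14 in wild-type mice (interaction -1.03 ± 0.20, adjusted p = 0.0153), and the interaction was -0.48 (0.0893) with the trend removed. Stx17 on vehicle was at 4.92, 5.04 and 5.17 log2 CPM in R6/2 and 5.22, 5.07 and 5.13 in wild-type libraries, and on PLX3397 at 5.44, 5.59 and 5.43 in R6/2 and 3.68, 4.54 and 4.52 in wild-type libraries. The genotypes overlapped on vehicle and lay apart on the drug.

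Paralogs of the members with a called interaction can be set beside them. Rab3c, a vesicle Rab3 isoform, was at 9.08, 8.88 and 8.07 log2 CPM in the R6/2 PLX3397 and 7.86, 7.62 and 7.95 in R6/2 vehicle libraries, a difference of 0.87 (95% interval 0.15 to 1.59) that was not called (limma adjusted p = 0.315). In wild-type mice it was at 7.08, 8.05 and 8.42 on PLX3397 and 8.96, 8.94 and 8.60 on vehicle, a difference of -0.99 (-1.71 to -0.26; adjusted p = 0.0655). Per kilobase, Vamp1 minus Vamp2 was -2.83 ± 0.46 (SD, n = 3) log2 units in R6/2 PLX3397, -3.61 ± 0.44 in R6/2 vehicle, -4.32 ± 0.18 in wild-type PLX3397 and -3.15 ± 0.15 in wild-type vehicle libraries. Napa minus Napb was -0.35 ± 0.18 in R6/2 PLX3397, 0.01 ± 0.41 in R6/2 vehicle, 1.20 ± 0.40 in wild-type PLX3397 and 0.07 ± 0.08 in wild-type vehicle libraries. The alpha form of SNAP thus exceeded the beta form by the most in treated wild-type mice, and these ratios carry no test. They were not corrected for base composition, and the GC fraction was 0.562 for Napa and 0.442 for Napb. With the GC and length trend removed, the rise of Napa with the drug in wild-type mice was 0.34 (limma adjusted p = 0.0809).

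**Figure D5:**
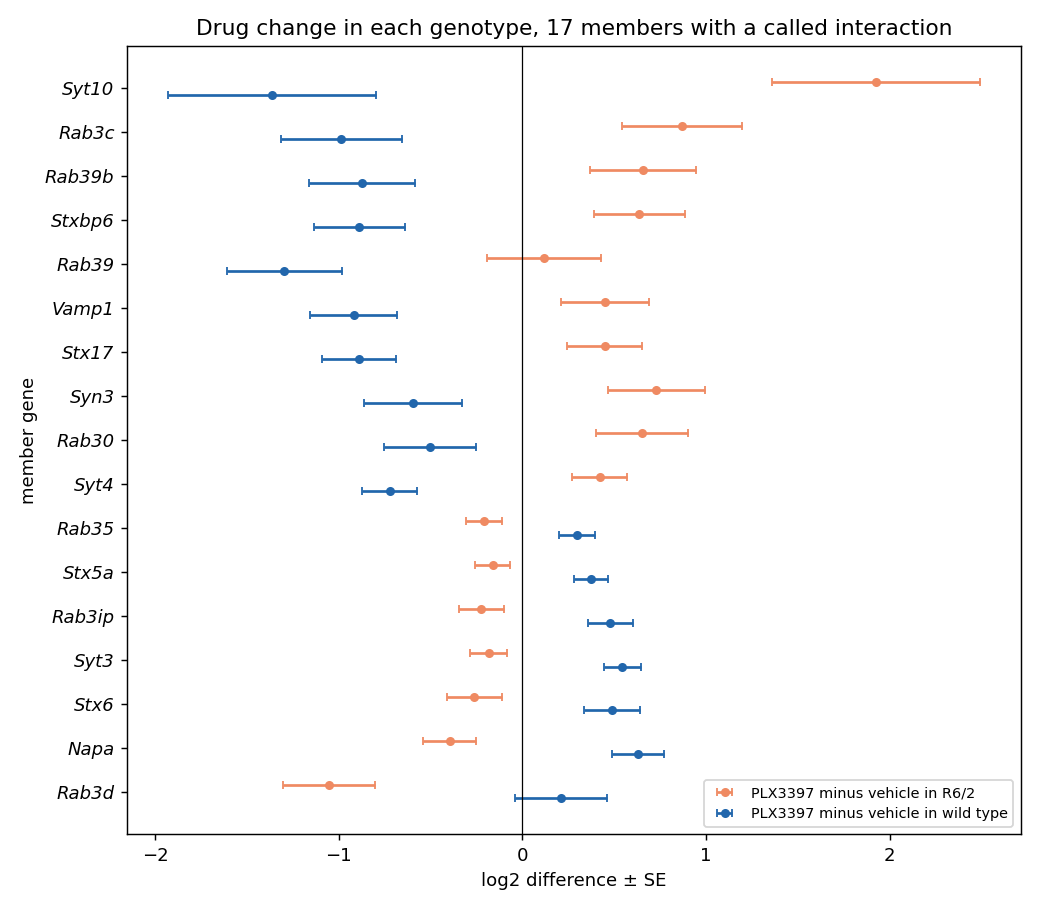
Change with PLX3397 on the log2 scale (difference ± SE, n = 3 mice each) in R6/2 and in wild-type mice for the 17 members with a called interaction. In every row the 2 changes lie on opposite sides of 0, which a choice by called interaction favours. Syt10 is farthest apart, at 1.92 in R6/2 and -1.36 in wild type.

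The interaction too went with base composition and depended on the libraries fitted. Its correlation with GC was -0.672 across the members and -0.553 across all genes. With the GC and length trend removed 5 members were called, 4 higher and 1 lower (7.28% of all genes), and Stx17, Stxbp6 and Syt10 were shared with the 17. Without R6/2 PLX3397 library 1, 4 members were called, and without library 2, 3 were. Leaving out both left 1 library in that group, so lost calls cannot be told from lost power. Syt12, Rab3b and Cplx2 had no called interaction, at -0.55 (95% interval -0.96 to -0.13, limma adjusted p = 0.0654), 0.01 (-0.68 to 0.71, 0.980) and -0.62 (-1.27 to 0.03, 0.155). The 10 thalamus, septum and pallidum markers had an interaction median of 3.51, with 3 called higher, beside 9.29% of all genes. Their part in the interactions of the members was not tested.

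The other presynaptic lists show which neighbours of the members were called on the drug. Of 19 other SNAREs and cofactors, 4 rose and 1 fell with PLX3397 in wild-type mice, and between the genotypes on PLX3397 4 were higher and 5 lower in R6/2. Of all genes 5.93% rose and 8.3% fell in the first comparison, and 17.1% were higher and 17.9% lower in the second. Vti1b, an endosomal SNARE, was lower by 1.17 there (log2 difference -1.17 ± 0.12, limma adjusted p = 3.26e-04). Of 28 endocytosis genes 8 were higher and 7 lower, and of 25 active zone and priming genes 7 were higher and 2 lower. None of 12 other vesicle membrane proteins was higher and 3 were lower, and of 6 transmitter transporters 1 was higher. Among the active zone genes, Rims3 (1.79 ± 0.41, adjusted p = 0.00789) was higher and Lin7b (-1.91 ± 0.16, 1.07e-04) lower in R6/2. In R6/2 mice none of the 5 lists had a member called with the drug.

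For some members the counted reads cannot be assigned with certainty, since strandedness was not given in the sources used here. Exons of Rab3b and Syt12 overlap the antisense or noncoding transcripts 8030443G20Rik and A930001C03Rik, Stx4a overlaps a neighbouring gene, Syn3 overlaps Timp3, Syt4 overlaps Gm26658, and Rab3gap2 overlaps Iars2, all on the opposite strand.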

How the data were processed

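The authors deposited 1 table for 12 striatum libraries of 15397 genes, in 4 groups of 3 mice. Its name says RPKM, but its values are log2 CPM with a prior of 2 reads on average, as all libraries share a lowest value and whole reads were recovered from 100% of the deposited values within 0.1 read. Per the submitters' processing notes, STAR, featureCounts, edgeR, limma and mm10 were used, without versions.

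Groups were taken from the labels. Group means were fitted over all 12 libraries with limma (3.58.1, R 4.3.3; intensity trend, two-sided), with Benjamini-Hochberg adjustment over 15397 genes and calls at an adjusted p under 0.05. For the interaction, the change with the drug in wild type was subtracted from that in R6/2. Intervals are 95% and come from this fit. The members and lists were chosen with earlier results of these data known.

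The values of 2 members are not reported here by name. The members named are otherwise from 22 core genes of release, the 6 with the smallest p in each comparison and called members up to the 12 with the smallest p, plus further called members given by their value and, chosen after their values were seen, members beside cortical markers. The 23 alternatives were leaving out each library, other pseudocounts (1 and 0.1), a filter of 1 CPM in 3 libraries, median of ratios scaling, a replicate block and fits of 6 libraries. Others left out both libraries high in choroid plexus markers, or R6/2 PLX3397 libraries 1 and 2, low in cortical markers. Wild-type PLX3397 library 1, also low in cortical markers, was kept in the second of these. The rest were a cortical covariate, limma-voom on recovered reads and removal of a GC and length trend (splines with 5 degrees of freedom, 14305 genes, all 78 members). With it the median of these genes for the drug in wild type was 0.12, against 0.01 without. For R6/2 against wild type on vehicle it was 0.11, against 0.02, and for the interaction -0.14, against -0.07. Between the genotypes on PLX3397 it was -0.015, against -0.013. The fitting code was run on simulated counts with known changes, as a check of direction and recovery alone. Its genes were drawn independently, so it does not show the rate of false calls in these libraries. Promoters came from RefSeq for GRCm38.p6. Tables used Python 3.11.15 with pandas 2.3.3 and numpy 2.4.6, and plots matplotlib 3.10.9.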

Additional observations from a re-analysis of the deposited data

Results flagged for a closer look

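For 17 members the change with PLX3397 differed between R6/2 and wild-type mice by the interaction term of limma, with an adjusted p under 0.05 over all 15397 genes. The interaction is given as the change in R6/2 minus that in wild type on the log2 scale. It was positive for Syt10 (3.29), Rab3c (1.85), Rab39b (1.53), Stxbp6 (1.52), Rab39 (1.41), Vamp1 (1.37), Stx17 (1.34), Syn3 (1.32), Rab30 (1.15) and Syt4 (1.14). It was negative for Rab3d (-1.26), Napa (-1.03), Stx6 (-0.75), Syt3 (-0.73), Rab3ip (-0.70), Stx5a (-0.53) and Rab35 (-0.51). Napa, Syt3 and Syt4 kept the call in 20 of 22 alternatives and Rab39 in 7. All 3 lost it with the GC and length trend removed, where Napa was at -0.48, Syt3 at -0.18 and Syt4, with its sign turned, at -0.33. Groups of 3 mice are too small to single out a library by its distance from the others.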

How the results depend on the processing

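The numbers of called members changed with single libraries and with removal of a GC and length trend. They also changed with a cortical covariate and without libraries that stood apart in tissue markers. The part of the tissue in the sample was not tested. Leaving out 1 library at a time gave 0 to 5 members for R6/2 against wild type on vehicle (3 in the full fit), 0 to 16 for the drug in wild type (11), 0 to 1 for the drug in R6/2 (0), 21 to 33 for R6/2 against wild type on PLX3397 (31) and 3 to 24 for the interaction (17). The 0 counts came without R6/2 vehicle library 2 or wild-type vehicle library 1 or 2 on vehicle, and without wild-type vehicle library 1 or 2 for the drug in wild type. The interaction fell to 3 members without R6/2 PLX3397 library 2 or wild-type vehicle library 1, to 4 without R6/2 PLX3397 library 1, to 5 without wild-type vehicle library 2 and to 6 and 10 without R6/2 vehicle libraries 1 and 2. Single libraries also moved the count on vehicle to 1 (without R6/2 vehicle library 1 or 3 or wild-type PLX3397 library 3) or 5 (without wild-type PLX3397 library 1) and that of the drug in wild type to 6 (without wild-type PLX3397 library 2). Removal of the GC and length trend gave 5 members for the drug in wild type, 19 between the genotypes on PLX3397 and 5 for the interaction. Fits of the 6 libraries compared gave 1 for the drug in wild type and 19 between the genotypes on PLX3397. The cortical covariate gave 1 on vehicle and 6 for the interaction. Without R6/2 vehicle library 1 and wild-type PLX3397 library 1, high in choroid plexus genes, there was 1 on vehicle and there were 17 for the drug in wild type. Leaving out R6/2 PLX3397 libraries 1 and 2 together left 1 library in that group, so lost calls cannot be told from lost power. Pseudocounts, the low-value filter, rescaling and limma-voom left every count within 1.5 times its first value.

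A planned count model of edgeR is not given, since the deposited values are logs. Among the called differences of named members and the alternatives run, signs turned only with the GC and length trend removed: Syt4 with the drug in wild type was then 0.22 (limma adjusted p = 0.393), Syt3 between the genotypes on PLX3397 0.016 (0.921) and the Syt4 interaction -0.33 (0.353). Small differences that were not called also turned sign when a library was left out, such as that of Syt1 on vehicle, at 0.21 without R6/2 vehicle library 1. The cause was not tested.

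The replicate block, pairing libraries by their number, gave 1 called member on vehicle, 5 for the drug in wild type, 0 for the drug in R6/2, 26 between the genotypes on PLX3397 and 9 for the interaction. Deviations of same-numbered libraries correlated at -0.32 to 0.40, with 3 of 18 pairs above 0.1. As deviations within a group of 3 sum to 0, these values cannot show whether the numbers pair the mice. Counts of 13 to 56 reads for Rab39 and 17 for Cplx3 limit what depth can show for these members.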
